A study of Homo sapiens with 8 samples.

Results

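The comparison set miRNA inhibitors against a negative control (NC control) in 293T cells, an established line of human embryonic kidney origin that expresses SV40 large T antigen. Its members were chosen by their titles and are 4 of the 8 libraries of a ribosome profiling study, with 2 libraries of each group. In the other 4 libraries shNBD1, a short hairpin RNA labelled as non-cleaving, was set against a control for shRNA, again with 2 of each. All 8 libraries came from 293T cells grown in high-glucose DMEM with serum and antibiotics and lysed in a buffer with cycloheximide. The labels name neither the miRNAs that were inhibited nor the dose, the time or the chemistry of the inhibitors, so no gene could be assigned to an inhibited miRNA. They do not say that libraries of a group came from separate cultures, so p-values here reflect how far these libraries scatter, possibly for technical reasons alone. Ribosome profiling counts the mRNA fragments that ribosomes protect. Without matched RNA libraries in this comparison, a change in mRNA level and a change in translation cannot be told apart.

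A microRNA (miRNA) is a short RNA that guides an Argonaute protein to messages that pair with its seed, the bases close to its 5′ end. Argonaute then recruits a TNRC6 scaffold protein, which brings the deadenylase and decapping enzymes that lower translation and stability of the message. An inhibitor is an oligonucleotide that pairs with a miRNA and keeps it from its targets. Several genes of the silencing machinery are textbook miRNA targets themselves, among them DICER1, which let-7 represses.

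The mature sequences below, from RefSeq (GRCh38.p14), show the seeds that define the target lists used here. They say nothing of which miRNAs the inhibitors were made against. Capitals mark the seed, bases 2 to 8 from the 5′ end. The first 4 share the let-7 seed, the next 4 the miR-17 seed and the last 3 the miR-15/16 seed. In the RefSeq table, 11 human mature names carried the let-7 seed, 8 the miR-17 seed and 7 the miR-15/16 seed.
hsa-let-7a-5p: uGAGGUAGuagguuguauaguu
hsa-let-7f-5p: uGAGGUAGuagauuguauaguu
hsa-let-7i-5p: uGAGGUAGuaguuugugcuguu
hsa-miR-98-5p: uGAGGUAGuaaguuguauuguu
hsa-miR-17-5p: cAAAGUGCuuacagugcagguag
hsa-miR-20a-5p: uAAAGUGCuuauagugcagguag
hsa-miR-93-5p: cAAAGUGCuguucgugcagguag
hsa-miR-106b-5p: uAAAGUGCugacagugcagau
hsa-miR-15a-5p: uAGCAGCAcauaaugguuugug
hsa-miR-15b-5p: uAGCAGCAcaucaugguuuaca
hsa-miR-16-5p: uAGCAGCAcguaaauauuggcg

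Total counts were 19050037 and 19854218 in the controls and 15637644 and 11218980 with inhibitors, and the other 4 libraries lay within that range. The replicates of this comparison differed more from each other than those of the shRNA comparison. Over the 10909 genes averaging 50 counts or more, the median absolute log2 difference between replicates was 0.14 in the controls and 0.15 with inhibitors, against 0.07 and 0.09 in the shRNA control and shNBD1. Of the 10 listed markers of 293T cells, the intermediate filament gene VIM had 34429 to 69954 counts in the 4 libraries, KRT8 16361 to 26871, KRT18 8152 to 11598 and the cadherin CDH2 3034 to 6380. NEFM had 13 to 28 counts, PAX2 20 to 62 and PAX8 2 to 4, and the others were not analysed here. Of 20 listed markers of other cell types, 17 were in the files and 9 were tested. CDH5, which marks endothelium, had 0 counts in all 4 libraries, and ALB, AFP, PTPRC, CD3E, DCN and MYOD1 had 0 to 3. Other members were counted more often: ACTA2 had 4487 to 10408 counts, COL1A1 474 to 849, MYH11 318 to 405, CD68 133 to 296 and DES 75 to 151. CD14, PECAM1, VWF, PDGFRB and ADIPOQ had 2 to 32. The summed level of the whole marker list, as CPM (counts scaled to a common library size, here the raw total), was 613.2 and 585.7 in the controls and 501 and 509.8 with inhibitors, which did not overlap. Most of it was the smooth muscle actin ACTA2; without that gene the sums were 66.8 and 90.5 against 88.5 and 109.8, which overlapped. The part of this difference in the results was not tested.

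Of 13306 genes tested with edgeR's quasi-likelihood test and Benjamini-Hochberg adjustment, 5 were higher (0.0376% of the genes) and 11 lower (0.0827%) at an adjusted p under 0.05. The 5 were ANKRD52, SNRPA, TNRC6A, THBS1 and YOD1. The 11 were MSI2, NOTCH3, GRIPAP1, RTL8A, MAPK3, REEP2, CSNK1E, STMN3, MAPK8IP2, ITGA8 and CIRBP. Both inhibitor libraries lay outside the range of both controls for all 16, and all 16 had the same sign in both same-numbered pairs of libraries. Groups that do not overlap have the same sign in both pairs, and a small p with 2 libraries a group favours such genes. Both properties therefore describe the called genes and add no support to the calls. Over all genes tested, 20.5% had both inhibitor libraries above both controls and 20.3% had both below. THBS1 and ITGA8 were the 2 that changed at least 2-fold. At an unadjusted p under 0.05 there were 1130 higher and 1053 lower genes.

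These calls rested on the spread of all 8 libraries. On the 4 libraries of this comparison alone, edgeR called 0 genes, with 585 higher and 579 lower at an unadjusted p under 0.05, and DESeq2 on all 8 called 40 higher and 70 lower. Without the filter on low counts edgeR called 74 higher and 105 lower. Without shRNA control replicate 1, shRNA control replicate 2 or shNBD1 replicate 2 the count was 0, with 806, 809 and 856 higher and 899, 899 and 952 lower at an unadjusted p under 0.05; without shNBD1 replicate 1 it was 1, ANKRD52. Leaving out a library of the comparison gave 2 higher and 2 lower (control 1), 352 and 287 (control 2), 494 and 436 (inhibitors 1) or 3 and 3 (inhibitors 2). The 16 genes kept their direction in all 17 alternatives run, which the lack of overlap between their groups favours. ANKRD52 was past the threshold in 13 of these alternatives, MSI2 in 12, and the other 14 genes in 9 to 11.

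**Figure D1:**
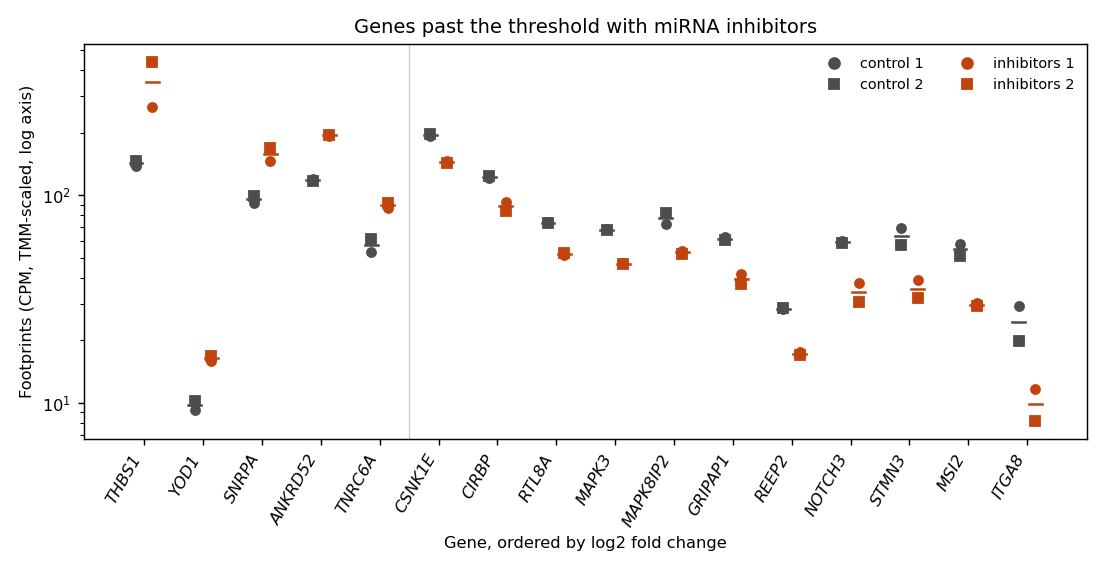
Footprint level of the 16 genes past the threshold, in CPM on a log axis, in the 2 controls (grey) and 2 inhibitor libraries (orange); circles are replicate 1, squares replicate 2, and short bars the group means. The 5 higher genes stand left of the vertical line and the 11 lower genes right of it, and in each gene the points of the groups do not overlap.

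The gene with the smallest p was ANKRD52 (chr12:56237807-56258384). It encodes a regulatory subunit of protein phosphatase 6 that takes phosphates off Argonaute 2 and so lets it bind targets again. Its level, in CPM of the TMM-scaled library, was 119.8 and 117.3 in the controls and 193.1 and 194.7 with inhibitors. The replicates of each group were close together and the groups far apart. The log2 fold change was 0.71 ± 0.06 (SE, n = 2 libraries per group, adjusted p = 0.00493, edgeR's quasi-likelihood test). It was the only member called among 13 tested genes of Argonaute phosphorylation and turnover. This list and those below were chosen with earlier results of these data known, so their counts and shares are a description. Of these, 7 (53.8%) lay above both controls and 1 (7.69%) below, against 20.5% and 20.3% of all genes. The median log2 fold change of that list was 0.14, where the median of all genes was 0.01. In the same list, the Argonaute-loading chaperone HSPA8 stood at 2066 and 2069 CPM in the controls and 2294 and 2643 with inhibitors, with a log2 fold change of 0.26 that missed the threshold (adjusted p = 0.163, edgeR). A CPM value is not divided by gene length, so levels are compared between libraries and not between genes.

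TNRC6A (chr16:24610205-24826218), the GW182 scaffold between Argonaute and the deadenylases, rose as well. It measured 53.3 and 61.1 CPM in the controls and 86.9 and 91.3 with inhibitors. Its log2 fold change was 0.64 ± 0.08 (SE, n = 2 per group, adjusted p = 0.028, edgeR). AGO2, the Argonaute that can cut its target, had 32.4 and 37.2 CPM in the controls and 48.6 and 64.1 with inhibitors. The groups did not overlap, but its log2 fold change of 0.69 ± 0.13 missed the threshold (adjusted p = 0.0803, edgeR). The other TNRC6 scaffolds differed less. TNRC6C stood at 27.4 and 26.9 against 33.9 and 33.2 CPM (log2 fold change 0.31), and TNRC6B at 84.2 and 72.1 against 97.8 and 87.6 CPM (0.25). AGO1, AGO3 and AGO4, the other Argonautes, had log2 fold changes of 0.19, 0.27 and 0.23. The AGO1 libraries measured 52.5 and 46.5 CPM in the controls and 57.8 and 54.9 with inhibitors, and those of AGO3 25.6 and 25.4 against 29.5 and 32.2. AGO4 overlapped between groups with 10.7 and 7.2 against 11.3 and 9.55 CPM, and without control replicate 2 its sign turned, to -0.03. Of these 7 silencing proteins 1 was called, and 6 (85.7%) lay above both controls and 0 below, against 20.5% and 20.3% of all genes. All 7 were positive in both pairs, as were 4763 of all 13306 genes. For the 6 without overlap this follows from the lack of overlap and adds no support. The list's median log2 fold change was 0.27, and without control replicate 1 it was 0.36.

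Of the miRNA processing enzymes, 0 of 15 tested were called, with 2 positive and 0 negative members at an unadjusted p under 0.05. DICER1, the nuclease that cuts miRNA precursors, had 71.6 and 75.1 CPM in the controls and 105.6 and 93.2 with inhibitors, without overlap. Its log2 fold change was 0.44 ± 0.08 (adjusted p = 0.0803, edgeR). LIN28B, which blocks let-7 maturation and is a let-7 target, stood at 12.01 and 13.7 against 18.8 and 19.9 CPM (log2 fold change 0.58, adjusted p = 0.0934, edgeR). The rest of the list showed no such lean, and its median of 0.04 was 0.01 without control replicate 2. The deadenylases and decapping enzymes of the CCR4-NOT, PAN2-PAN3 and DCP2 complexes were split. Of 26 tested, 5 (19.2%) lay above both controls and 4 (15.4%) below, against 20.5% and 20.3% of all genes. Their median log2 fold change of -0.02 was 0.02 without control replicate 1. Of them 0 were called, with 2 positive and 2 negative members at an unadjusted p under 0.05 (edgeR). All 13306 genes held 1130 positive and 1053 negative ones at that p.

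Lists of textbook targets of abundant miRNA families were read next, against 20.5% of all genes above and 20.3% below both controls. Among 29 tested let-7 targets, 15 (51.7%) had both inhibitor libraries above both controls and 1 (3.45%) below, and the median log2 fold change was 0.19. Among 23 tested miR-15/16 targets 11 (47.8%) lay above and 0 below, with a median of 0.20. Among 30 tested miR-17 family targets 12 (40%) lay above and 1 (3.33%) below, with a median of 0.11, which was 0.05 without inhibitor replicate 1, 0.07 without control replicate 2 and 0.16 without control replicate 1. Called members numbered 2 in the let-7 list, 0 in the miR-15/16 list and 0 in the miR-17 list (edgeR). At an unadjusted p under 0.05 (edgeR) these lists held 10, 9 and 7 positive and 0, 0 and 2 negative members. Of all 13306 genes tested, 1130 were positive and 1053 negative at that p. The other families leaned less. Targets of miR-19, miR-92 and miR-21 had 8 of 26 above and 6 below, and targets of miR-10 and miR-30 had 8 of 23 above and 4 below. Their medians were 0.01 and 0.02, and their sign turned when single libraries were left out. Each held 1 called member, YOD1, also in the let-7 list, and TNRC6A, already counted among the silencing proteins. With shNBD1 against its own control, the let-7 list also leaned up, with a median of 0.31. There 10 of its members were called higher and 3 lower, where 18.3% of all genes were called in either direction (edgeR). The lean of the let-7 list was thus not particular to the inhibitors. The shNBD1 medians of the miR-17 and miR-15/16 lists were 0.06 and -0.10. The lists overlap (CDC25A, CCND1 and CCND2 stand in both the let-7 and the miR-15/16 list), and the members of a list are not replicates.

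**Figure D2:**
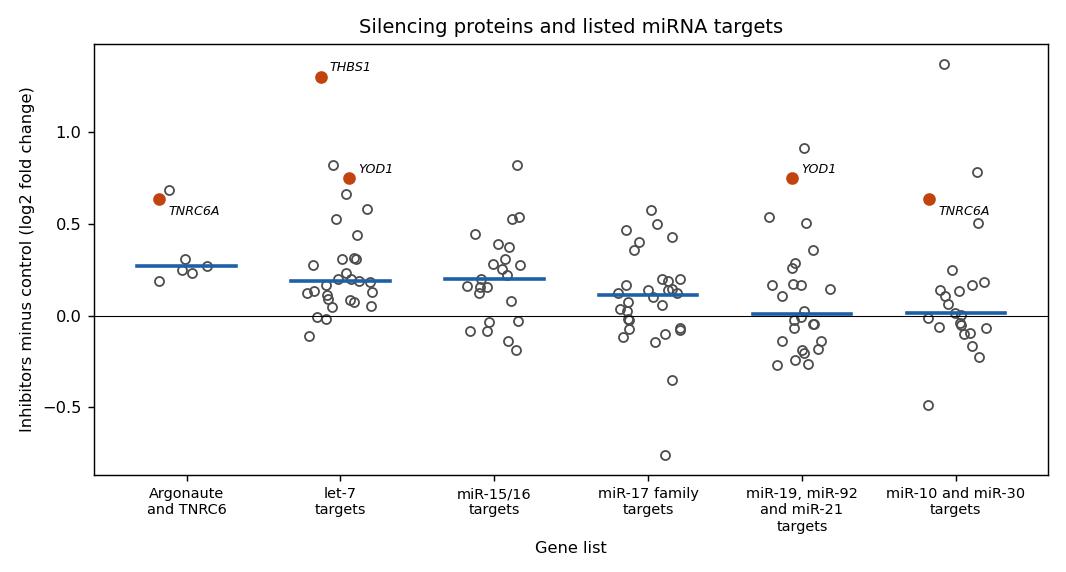
Log2 fold change (inhibitors minus control) of every tested member of 6 gene lists, with each list's median as a blue bar and genes past the threshold filled and named. The medians of the silencing proteins and of the let-7, miR-15/16 and miR-17 targets lie between 0.11 and 0.27, and those of the remaining pair of target lists at 0.01 and 0.02.

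Within the let-7 list THBS1 and YOD1 rose. THBS1 (chr15:39581079-39599466) encodes thrombospondin 1, a secreted matrix glycoprotein. It measured 137.7 and 146.4 CPM in the controls and 264.7 and 438.4 with inhibitors. The groups did not overlap, and the inhibitor libraries stood far apart from each other. The log2 fold change was 1.30 ± 0.18 (SE, n = 2 per group, adjusted p = 0.0297, edgeR), with 0.94 in the first pair and 1.58 in the second. Over the 17 alternatives it ranged from 0.89 to 1.61. YOD1 (chr1:207043849-207053116), a deubiquitinase that works with the p97 ATPase, is also listed under miR-21 and its companions. It had 9.2 and 10.2 CPM in the controls and 15.8 and 16.8 with inhibitors. Its log2 fold change was 0.75 ± 0.12 (adjusted p = 0.0483, edgeR), just inside the threshold.

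Other members of the target lists are given as values. CDC25A, the phosphatase that drives entry into S phase, measured 48.7 and 52.7 CPM in the controls and 65.8 and 80.8 with inhibitors (log2 fold change 0.53, adjusted p = 0.0803, edgeR). The D-type cyclin CCND2 stood at 84.7 and 98.1 against 109 and 118 CPM (0.31, adjusted p = 0.138, edgeR). Neither overlapped between groups. In the miR-15/16 list, the deubiquitinase USP15 had 40.8 and 39.4 against 49.4 and 55.9 CPM (log2 fold change 0.39), and the anillin gene ANLN, needed for cytokinesis, 183 and 192 against 222 and 208 CPM (0.20). In the miR-17 list, FYCO1, which links autophagosomes to kinesin, measured 35.9 and 34.9 CPM against 47.0 and 53.5 (0.50, adjusted p = 0.0803, edgeR). The survival factor MCL1 measured 117 and 124 CPM against 145 and 175 (0.40, adjusted p = 0.113, edgeR).

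SNRPA (chr19:40751203-40765389) rose outside these lists. It encodes the A protein of the U1 small nuclear ribonucleoprotein (snRNP), the particle that recognises 5′ splice sites. Its level was 91.9 and 99.2 CPM in the controls and 146.1 and 168.7 with inhibitors (log2 fold change 0.72 ± 0.08, adjusted p = 0.0204, edgeR). SNRPB2 and SNRPA1, of the U2 snRNP, had log2 fold changes of 0.16 and 0.08 and did not pass. Of 29 tested spliceosomal snRNP genes SNRPA was the 1 called. In that list 4 (13.8%) lay above both controls and 6 (20.7%) below, against 20.5% and 20.3% of all genes. The list's median was 0.03 and turned to -0.04 without control replicate 1.

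The lower genes included a pair of RNA-binding proteins. MSI2 (chr17:57255851-57701581), a Musashi protein that controls translation in stem and progenitor cells, had 58.4 and 51.0 CPM in the controls and 30.2 and 29.1 with inhibitors. It fell by 0.88 ± 0.10 on the log2 scale (SE, n = 2 per group, adjusted p = 0.0142, edgeR), with the smallest p among the lower genes. Its paralog MSI1 measured 21.7 and 22 against 19.4 and 20.1 CPM (log2 fold change -0.15, adjusted p = 0.522, edgeR). CIRBP (chr19:1269332-1274880), a cold-inducible RNA-binding protein, fell by 0.47 ± 0.07 (adjusted p = 0.0429, edgeR), from 120.4 and 124.3 CPM to 92.5 and 84.2. Of 19 tested genes in that list of RNA-binding proteins 2 were called lower and 0 higher. In it 8 (42.1%) lay below both controls and 5 (26.3%) above, against 20.3% and 20.5% of all genes. The median log2 fold change of -0.07 was near 0 without control replicate 1. PUM2, a Pumilio repressor, was among those below without passing, at 69.9 and 56.5 against 49.8 and 40.4 CPM (log2 fold change -0.48).

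Signalling genes made up another group. NOTCH3 (chr19:15159038-15200995), a Notch receptor, measured 60.4 and 59.0 CPM in the controls and 37.8 and 30.6 with inhibitors. It fell by 0.79 ± 0.10 on the log2 scale (adjusted p = 0.028, edgeR). The paralog NOTCH2 was at 276 and 249 against 267 and 259 CPM (log2 fold change 0.01), overlapping between groups. Of 31 tested Notch pathway genes NOTCH3 was the 1 called. In that list 5 (16.1%) lay above and 5 (16.1%) below both controls, against 20.5% and 20.3% of all genes. The median was 0.00, ranging from -0.05 without inhibitor replicate 2 to 0.06 without control replicate 2. MAPK3 (chr16:30114105-30123220), which encodes the kinase ERK1, fell by 0.54 ± 0.08 (adjusted p = 0.0346, edgeR), from 68.3 and 67.9 CPM to 47.1 and 46.5. Both pairs gave -0.54.

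MAPK8IP2 (chr22:50600793-50613978), a scaffold for the JNK cascade, fell by 0.54 ± 0.08 on the log2 scale (adjusted p = 0.0396, edgeR). It measured 72.5 and 81.8 CPM in the controls and 54.1 and 51.8 with inhibitors. The scaffolds MAPK8IP1 and MAPK8IP3 were low and overlapped between groups, with log2 fold changes of 0.40 and 0.35. CSNK1E (chr22:38290691-38318084), casein kinase 1 epsilon of the circadian clock and Wnt signalling, had 192.7 and 196.8 CPM in the controls and 146.0 and 143.2 with inhibitors. It fell by 0.43 ± 0.06 (adjusted p = 0.0396, edgeR), the smallest change of the 16 genes. The kinases CSNK1A1 and CSNK1D had log2 fold changes of 0.12 and -0.02. Of 28 tested genes of the RAS-ERK cascade and JNK scaffolds 2 were called lower and 0 higher. In that list 7 (25%) lay above both controls and 4 (14.3%) below, against 20.5% and 20.3% of all genes.

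A further group of lower genes is best known from neurons. STMN3 (chr20:63639712-63653424), a stathmin that destabilises microtubules, had 69.1 and 57.3 CPM in the controls and 39.1 and 31.8 with inhibitors. It fell by 0.82 ± 0.12 on the log2 scale (adjusted p = 0.0396, edgeR). REEP2 (chr5:138439057-138446965), which shapes the endoplasmic reticulum and binds microtubules, fell by 0.72 ± 0.11 (adjusted p = 0.0396, edgeR), from 28.2 and 28.5 CPM to 17.4 and 16.9. GRIPAP1 (chrX:48973723-49002264), a recycling endosome protein of dendrites, had 62.6 and 60.4 CPM against 41.5 and 37.5. It fell by 0.64 ± 0.08 (adjusted p = 0.028, edgeR). Relatives of STMN3 and REEP2 did not pass the threshold. STMN1, a stathmin, overlapped between groups at 576 and 437 against 460 and 358 CPM, with a log2 fold change of -0.31 and the same sign in both pairs (-0.32 and -0.29; adjusted p = 0.281, edgeR). REEP1, REEP5 and REEP6 had log2 fold changes of -0.11, 0.30 and -0.18. CRMP1, a collapsin response mediator, stood just outside the threshold at 13.8 and 9.8 CPM against 5.38 and 4.35 (log2 fold change -1.26 ± 0.21, adjusted p = 0.0628, edgeR). Of 31 tested stathmin, tubulin and microtubule genes 2 were called lower and 0 higher. In that list 7 (22.6%) lay below both controls and 1 (3.23%) above, against 20.3% and 20.5% of all genes. The median of -0.01 was -0.11 without control replicate 1 and 0.06 without control replicate 2.

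ITGA8 (chr10:15513954-15719922) encodes an integrin subunit needed for kidney development. Its level was 29.2 and 19.9 CPM in the controls and 11.6 and 8.13 with inhibitors, with replicates of each group far apart. Its log2 fold change was -1.28 ± 0.19 (SE, adjusted p = 0.0396, edgeR), with -1.32 and -1.28 in the pairs. Over the 17 alternatives the value ranged from -1.61 to -0.98. The integrin subunit ITGA7 was also below both controls, at 22.5 and 29.4 against 17.3 and 19.0 CPM (log2 fold change -0.52, adjusted p = 0.14, edgeR), and did not pass. ITGA5 and ITGAV had log2 fold changes of 0.36 and 0.09 that did not pass either. Of 41 tested integrin and matrix genes THBS1 was called higher and ITGA8 lower, and the median was 0.09. In that list 13 (31.7%) lay above both controls and 7 (17.1%) below, against 20.5% and 20.3% of all genes.

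RTL8A (chrX:135050932-135052135) is a gene derived from a retrotransposon Gag. It had 74.2 and 73.3 CPM in the controls and 51.6 and 52.5 with inhibitors, and fell by 0.50 ± 0.07 on the log2 scale (adjusted p = 0.0311, edgeR). Its near-identical neighbours on the X chromosome can share reads with it, and how such reads were counted is not given in the sources used here. RTL8B measured 34.5 and 28.5 against 26.1 and 24.7 CPM (log2 fold change -0.31, adjusted p = 0.201, edgeR). RTL8C measured 89.0 and 98.4 against 86.3 and 92.1 CPM (-0.07, adjusted p = 0.694, edgeR). The value of RTL8A is therefore uncertain as that of a single gene.

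Just outside the threshold stood further genes whose groups did not overlap, with adjusted p between 0.0516 and 0.0803 in edgeR's test. On the higher side, the deubiquitinase OTUD4 had 20.6 and 18.3 CPM in the controls and 28.4 and 31.4 with inhibitors (log2 fold change 0.61). The nuclear pore component NUP160 had 146 and 143 against 183 and 187 CPM (0.35). PPP2R1B, a scaffold subunit of protein phosphatase 2A, had 91.5 and 81.7 against 111 and 122 CPM (0.43). CDKN1B, the p27 inhibitor of cyclin-dependent kinases, had 13.1 and 13.99 against 19.1 and 21.6 CPM (0.58). MGST1, a microsomal glutathione transferase, had 6.24 and 6.94 against 10.9 and 11.4 CPM (0.76). On the lower side, the cytochrome P450 gene CYP4X1 had 35.5 and 31.7 CPM against 21.5 and 17.9 (-0.76, the nearest to the threshold). The ubiquitin-conjugating enzyme UBE2E1 had 85.2 and 82.9 CPM against 62.8 and 62.1 (-0.43). SMDT1, a subunit of the mitochondrial calcium uniporter, had 57.4 and 57.6 CPM against 41.8 and 42.6 (-0.45). ADAM9, a membrane metalloprotease, and GREB1L, a gene of kidney development, had log2 fold changes of 0.40 and 0.42.

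Chaperones and the translation apparatus leaned upwards without a called gene. The shares of all genes were 20.5% above and 20.3% below both controls. Of 22 tested HSF1 chaperones, 16 (72.7%) lay above both controls and 1 (4.55%) below, with a median log2 fold change of 0.21, which was 0.13 without inhibitor replicate 2. CHORDC1, a cochaperone of HSP90, had the smallest p, at 62.0 and 67.6 CPM against 84.5 and 112.9 (log2 fold change 0.60, adjusted p = 0.0803, edgeR). HSPH1, which reloads HSP70, measured 113 and 124 against 140.4 and 149 CPM (0.29). Of 73 tested cytosolic ribosomal proteins, 32 (43.8%) lay above both controls and 1 (1.37%) below. Their median was 0.20, which was 0.06 without inhibitor replicate 2, 0.11 without control replicate 1, 0.30 without control replicate 2 and 0.30 without inhibitor replicate 1. RPS25, a protein of the small ribosomal subunit, led by p with 417 and 490 against 572 and 688 CPM (log2 fold change 0.47, adjusted p = 0.098, edgeR). For histones, 15 of 23 tested genes (65.2%) lay above both controls, and the median of 0.18 was 0.09 without control replicate 1. The linker histone H1-3 stood at 469 and 436 against 598 and 527 CPM (log2 fold change 0.31). Called members numbered 0 in each of these 3 lists. At an unadjusted p under 0.05 (edgeR) they held 12, 34 and 11 positive and 0, 0 and 1 negative members. All 13306 genes held 1130 and 1053.

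p53 targets and cholesterol synthesis genes leaned downwards with inhibitors, also without a called gene. The shares of all genes were 20.3% below and 20.5% above both controls. Of 23 tested p53 targets, 9 (39.1%) lay below both controls and 1 (4.35%) above, with a median log2 fold change of -0.24. That median was -0.13 without control replicate 1, -0.16 without inhibitor replicate 2, -0.39 without control replicate 2 and -0.42 without inhibitor replicate 1. BAX, which permeabilises mitochondria in apoptosis, had 195 and 168 CPM in the controls and 143 and 128 with inhibitors (log2 fold change -0.42, adjusted p = 0.0934, edgeR). TP53I3, a quinone oxidoreductase, had 30.3 and 23.0 against 17.8 and 14.8 CPM (-0.70, adjusted p = 0.0998, edgeR). Because 293T cells carry large T antigen, which binds p53, these genes are read only as a list. Of 24 tested cholesterol synthesis genes, 6 (25%) lay below and 0 above. Their median of -0.13 was -0.01 without inhibitor replicate 2, -0.05 without control replicate 1 and -0.30 without inhibitor replicate 1. SREBF2, the transcription factor of this pathway, was at 248 and 206 against 197 and 161 CPM (log2 fold change -0.34). At an unadjusted p under 0.05 (edgeR) there were 7 negative and 0 positive p53 targets, and 3 negative and 0 positive cholesterol genes. Among all 13306 genes 1053 were negative and 1130 positive at that p. Both lists also leaned down with shNBD1 against its own control. The medians there were -0.48 for p53 targets, with 13 called lower and 0 higher, and -0.21 for cholesterol genes, with 7 lower and 1 higher (edgeR). Of all genes 18.3% were called in that comparison.

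The other lists are given by their counts, against 20.5% of all genes above and 20.3% below both controls. Of 24 tested interferon-stimulated genes, 7 lay below and 2 above both controls, with a median of -0.12 that was -0.06 without control replicate 2 or inhibitor replicate 2; IFIT1, an antiviral RNA sensor, stood at 7.82 and 11.2 against 7.0 and 5.77 CPM. Of 20 tested genes of the endoplasmic reticulum unfolded protein response, 8 (40%) lay above and 2 (10%) below, with a median of 0.12 that was 0.06 without control replicate 1 or inhibitor replicate 2, and HSPA5, the lumenal HSP70, had 1220 and 1368 against 1560 and 1593 CPM (log2 fold change 0.28). The chaperonin and prefoldin list had 6 of 14 (42.9%) above and 1 (7.14%) below, with a median of 0.11 that was 0.04 without control replicate 1 and 0.20 without control replicate 2. Translation factors had 14 of 40 (35%) above and 1 (2.5%) below. Their median of 0.10 was 0.04 without control replicate 1 or inhibitor replicate 2 and 0.17 without control replicate 2 or inhibitor replicate 1. The ATF4 targets (4 of 24 above, 5 below), the ribosome collision factors (4 of 19 above, 2 below) and the cell cycle genes (6 of 36 above, 7 below) had medians of 0.01, 0.08 and -0.03. Without single libraries these ranged from -0.05 to 0.19, from 0.01 to 0.11 and from -0.07 to 0.04. The 13 mitochondrially encoded genes had a median of -0.23 in the first pair and 0.10 in the second, opposite in sign. Members called in these 8 lists numbered 0 (edgeR). At an unadjusted p under 0.05 each list held between 1 and 8 positive and between 0 and 4 negative members. All 13306 genes held 1130 and 1053.

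**Figure D3:**
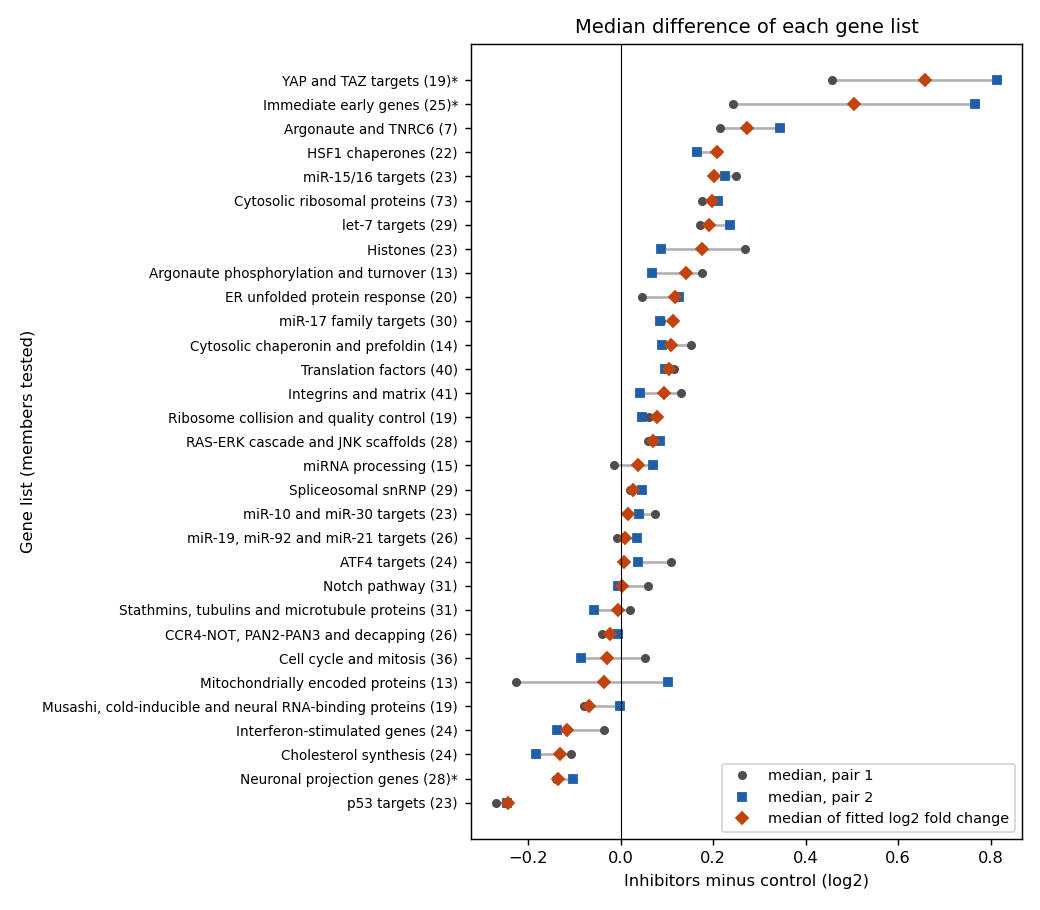
Median log2 difference (inhibitors minus control) of each gene list, with the number of members tested in brackets; grey circles and blue squares are the medians of the first and second same-numbered pair, and orange diamonds the medians of the fitted log2 fold changes. The silencing proteins stand at 0.27 and the p53 targets at -0.24. Asterisks mark 3 lists added after their values were seen. The other lists were chosen with earlier results of these data known.

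The same-numbered pairs gave the same sign in 9170 of the 13306 genes (68.9%). The 16 genes past the threshold lay close to the diagonal in the plot of both pairs. ANKRD52 gave 0.69 and 0.73, SNRPA 0.67 and 0.76, and RTL8A -0.52 and -0.48. THBS1 was the exception among them, at 0.94 and 1.58. Genes with larger differences failed the test where replicates disagreed. CCN2, a matrix-associated growth factor of the same cellular communication family as CCN1, was at 37.1 and 100.0 CPM in the controls and 135.8 and 682.3 with inhibitors, a log2 fold change of 2.57 ± 0.60 that missed the threshold (adjusted p = 0.121, edgeR); it was chosen after its values were seen.

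**Figure D4:**
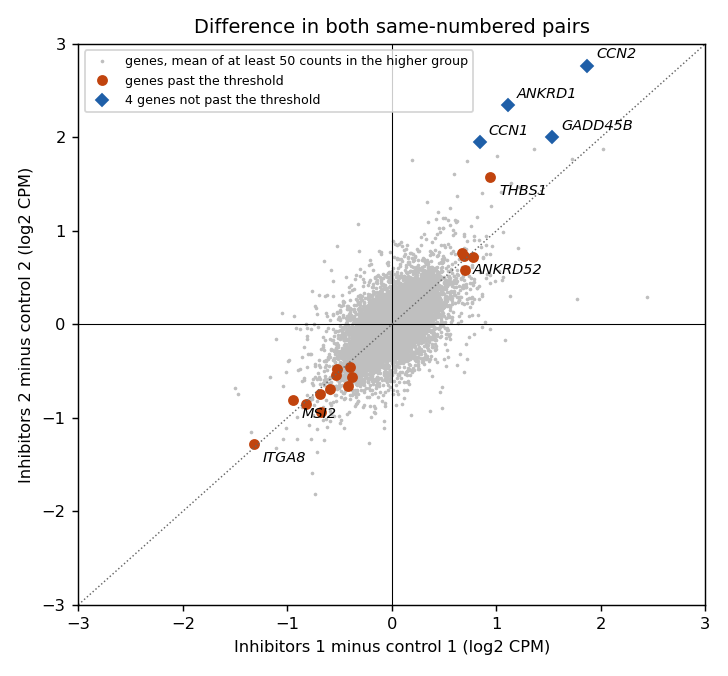
Difference in log2 CPM between inhibitors and control in the first (horizontal axis) and second (vertical axis) same-numbered pair, for genes averaging 50 counts or more in their higher group (grey), the 16 genes past the threshold (orange) and 4 genes picked with their values already known (blue). The orange points lie near the dotted diagonal of equal differences, with THBS1 at 0.94 and 1.58, and the 4 blue genes lie above it.

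The hairpin comparison, which shares no library with this one, sets the inhibitor effect beside that of another small RNA treatment. The controls themselves differed in level. THBS1 had 13.2 and 11.9 CPM in the shRNA controls against 137.7 and 146.4 in the controls here, and CD68 38.0 and 38.5 against 11.7 and 15.1. In a difference of effects, the treatment and the set of libraries therefore cannot be told apart. In it 2440 genes (18.3%) were called, and the inhibitor effect was higher than the shNBD1 effect for 527 genes (3.96%) and lower for 463 (3.48%), by the interaction contrast of edgeR's test. Leaving out 1 library of the shRNA comparison brought these counts to between 105 and 180 higher and 82 and 155 lower. Of the 16 genes past the threshold with inhibitors, 11 differed from the shNBD1 effect. The 16 were picked for their inhibitor effect, which is part of this difference, so that count is a description. ANKRD52, THBS1, RTL8A and ITGA8 were called in the same direction in both comparisons. ANKRD52 rose by 0.81 on the log2 scale with shNBD1 against 0.71 with inhibitors, a difference of -0.10 ± 0.09 (adjusted p = 0.575, edgeR), and THBS1 by 1.49 against 1.30. YOD1, CSNK1E and MAPK8IP2 were called in opposite directions.

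For YOD1, the shNBD1 effect was -0.72 against 0.75 with inhibitors, a difference of 1.47 (adjusted p = 0.0014, edgeR). CSNK1E rose by 0.28 with shNBD1, and the difference was -0.71 (adjusted p = 0.00203, edgeR). MAPK8IP2 rose by 0.42 with shNBD1, and the difference was -0.96 (adjusted p = 0.00144, edgeR). Among the 7 silencing proteins, TNRC6A and AGO2 were the 2 whose effects differed between treatments. AGO1 and TNRC6C were called higher with shNBD1, by 0.40 each (adjusted p = 0.0118 and 0.0139, edgeR). Their differences between treatments, -0.22 and -0.09, missed the threshold (adjusted p = 0.324 and 0.705, edgeR). TNRC6A and AGO2 had shNBD1 effects of 0.16 and -0.16 that did not pass, and their differences were 0.48 and 0.85 (adjusted p = 0.0392 and 0.0205, edgeR). Both differences missed the threshold without shRNA control replicate 1, shRNA control replicate 2, shNBD1 replicate 1 or shNBD1 replicate 2, and that of TNRC6A also without control replicate 1 or inhibitor replicate 2. MSI2, at 0.03 with shNBD1, differed by -0.91 (adjusted p = 0.00373, edgeR). GFPT1 and CAPZA1 fell with shNBD1 and were called in neither direction with inhibitors. GFPT1, the first enzyme of hexosamine synthesis, had 147 and 135 CPM in the controls and 182 and 183 with inhibitors, a log2 fold change of 0.37 against -2.03 with shNBD1. CAPZA1, an actin capping subunit, measured 156 and 151 against 173 and 161 CPM (0.12, against -1.23 with shNBD1). The row named as the NBD1 reporter was level across the 4 libraries, at 8339 and 7954 CPM in the controls and 8212 and 7747 with inhibitors (log2 fold change -0.03); without inhibitor replicate 2 its sign turned, to 0.0013.

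**Figure D5:**
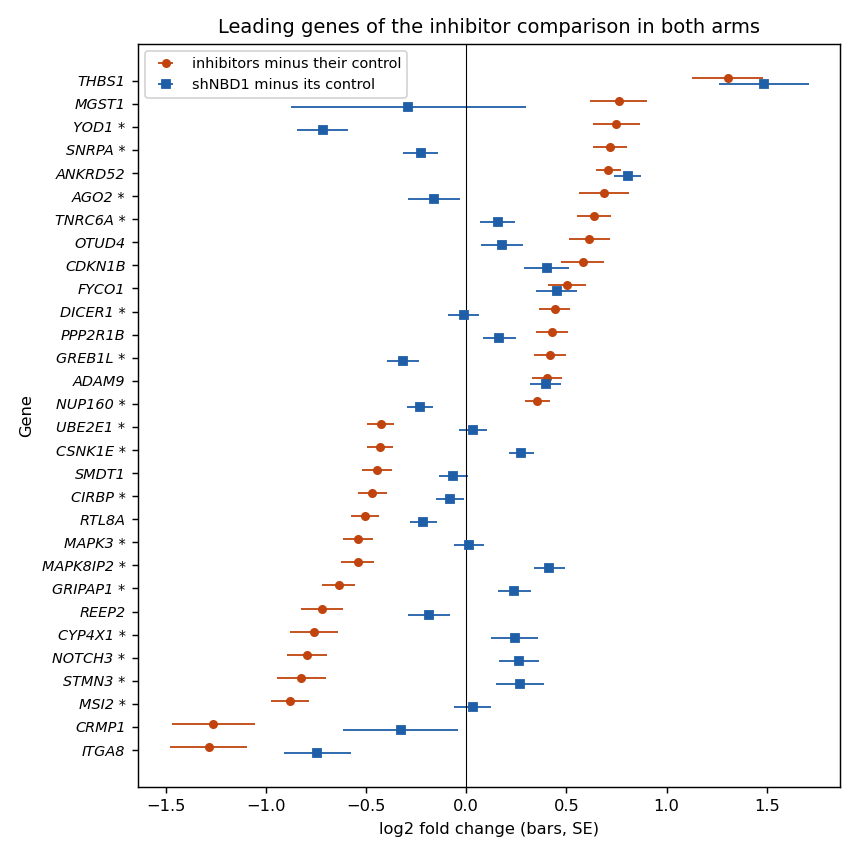
Log2 fold change with its SE for the 30 leading genes of the inhibitor comparison, with inhibitors against their control (orange circles) and with shNBD1 against its control (blue squares). Asterisks mark the 17 genes whose effects differed by the interaction contrast (adjusted p under 0.05, edgeR). The 30 genes were picked for a small p with inhibitors, which favours such differences. ANKRD52 stands at 0.71 and 0.81, and YOD1 on opposite sides of 0.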

How the data were processed

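Per the labels' protocols, a mammalian ribosome profiling kit was used, with modifications, on lysates with cycloheximide. The authors deposited raw counts of mapped reads, whole numbers without normalization, for each feature. Per the submitters' processing notes, cutadapt, Bowtie and the GRCh38 build were used. Their versions and roles, strand, rRNA removal and what was done with shared reads: not given in the sources used here. Features not listed in a library were taken as 0, and 18037 features were summed to 17179 symbols (279 from several features). Features named ZNF354B and ST8SIA1 together took between 6.94% and 11.3% of the counts in the 4 libraries, most in inhibitor replicate 2.

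The filterByExpr filter, at a minimum count of 10 and a minimum total of 15, left 13306 genes, and libraries were TMM-scaled. They were then fitted over all 8 libraries and 4 groups with edgeR 4.0.16 (limma 3.58.1, R 4.3.3) by the quasi-likelihood test, with Benjamini-Hochberg adjustment over all genes and a threshold of 0.05. The fit has 4 residual degrees of freedom, and its common biological coefficient of variation was 0.0753, against 0.101 on the 4 libraries of this comparison alone and 0.0318 on the other 4. DESeq2 1.42.0 was an alternative. Fold changes carry the SE implied by the test, and CPM values use TMM-scaled library sizes. Pair differences add a prior count of 2. Counting error and replicate spread are covered, amplification of reads is not. The steps were tested on simulated counts. Coordinates are those of RefSeq (GRCh38.p14), whose table held 12760 of the tested symbols and lacked 546.

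Members and gene lists were chosen with earlier results of these data known. Genes were named by a rule. It took the 15 of smallest p in each direction without overlap between groups and averaging 50 counts or more in the higher one. It also took called or leading members of each list, and the 6 of smallest p in each direction of the difference from shNBD1. Genes sharing a symbol stem with a called gene, and markers, were added. Some of these are given only in counts. No set test was run on any list. Of the 10 listed 293T markers 6 were tested, and of the 20 listed markers of other types 9. Among those tested 0 were called in either list (edgeR). At an unadjusted p under 0.05 the lists held 1 and 2 positive and 1 and 1 negative members. All 13306 genes held 1130 positive and 1053 negative ones.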

Additional observations from a re-analysis of the deposited data

Results flagged for a closer look

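The effect of the inhibitors differed from that of shNBD1, by the interaction contrast of edgeR's quasi-likelihood test, for 29 of the genes named for the smallest p with inhibitors or for the smallest p of the difference itself; list members named by other parts of the rule are not counted here. Values are the inhibitor effect minus the shNBD1 effect on the log2 scale, and their causes were not tested. Genes that fell with shNBD1 and were called in neither direction with inhibitors gave positive values: the hexosamine enzyme GFPT1 2.40, AMMECR1 2.15, the ectoenzyme ENPP4 1.95, the mitochondrial assembly factor TMEM70 1.39, the actin capping subunit CAPZA1 1.35 and the saposin precursor PSAP 1.20. Genes that rose with shNBD1 and were called in neither direction with inhibitors gave negative values: the olfactomedin gene OLFML2A -1.79, the actin filament capping gene TMOD1 -1.66, the axon guidance ligand SLIT3 -1.63, the kinesin KIF5C -1.22, the plasminogen activator PLAT -1.03 and the connexin GJA1 -0.96. Both sets were picked for this difference, so their values are a description. The genes that follow were picked for their inhibitor effect, which is part of the difference, so theirs are a description too.

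Among genes past the threshold with inhibitors, the value was 1.47 for YOD1, 0.95 for SNRPA and 0.48 for TNRC6A on the positive side. On the negative side it was -1.09 for STMN3, -1.06 for NOTCH3, -0.96 for MAPK8IP2, -0.91 for MSI2, -0.88 for GRIPAP1, -0.71 for CSNK1E, -0.55 for MAPK3 and -0.39 for CIRBP. Among those just outside the threshold it was 0.85 for AGO2, 0.74 for GREB1L, 0.58 for NUP160, 0.45 for DICER1, -1.0 for CYP4X1 and -0.46 for UBE2E1. None of the 29 differences reversed in any of the 14 alternatives run for them. TNRC6A, DICER1, AGO2, CIRBP, UBE2E1 and MAPK3 missed the threshold in several. Without 1 library of the shRNA comparison, 21 to 24 of the 29 remained past it.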

How the results depend on the processing

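The counts of called genes depended on how the spread was estimated. Against 5 higher and 11 lower, DESeq2 gave 40 and 70, no filter on low counts 74 and 105, and the 4 libraries alone 0 and 0. Leaving out 1 of the 8 libraries gave between 0 and 494 higher and between 0 and 436 lower; the leave-outs of the shRNA libraries were added after seeing the data. Size factors of DESeq2, a mean of at least 50 counts and removal of abundant features gave 4 to 5 and 10 to 11. The replicate block (replicate number as a term) gave 355 and 320, and, also chosen after seeing the data, 1463 and 1152 with the replicate block in this comparison only and 1360 and 1061 with the replicate block on the 4 libraries alone. All 16 called genes remained called with each replicate block. Deviations of same-numbered libraries correlated at 0.61 across genes here and at 0.04 in the shRNA comparison; nothing in the labels says that the numbers mark a shared culture, and with 2 pairs they count only as numbers.

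For the difference from shNBD1, 527 higher and 463 lower genes became 971 and 897 with the replicate block. Leaving out 1 library gave between 105 and 549 higher and between 82 and 582 lower. The median of the silencing proteins (0.27) ranged from 0.26 to 0.36, of the miR-17 targets (0.11) from 0.048 to 0.16 and of the miR-15/16 targets (0.20) from 0.16 to 0.23 with 1 library left out; with a mean of at least 50 counts the last was 0.18. The sign turned for AGO4, from -0.028 without control replicate 2 to 0.545 without control replicate 1, and for the NBD1 reporter, from -0.0847 without inhibitor replicate 1 to 0.0013 without inhibitor replicate 2; neither was called. With 2 libraries a group and a median replicate difference of 0.15 log2 units with inhibitors, small changes were not resolved at this depth.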

Other observations

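The genes and lists here were chosen after their values were seen and get no test as lists. Targets of YAP and TAZ, the coactivators of the Hippo pathway, stood high with inhibitors: 11 of 19 tested (57.9%) lay above both controls and 1 below, against 20.5% and 20.3% of all genes, with a median log2 fold change of 0.66. ANKRD1, a nuclear ankyrin-repeat protein, had 16 and 24.6 CPM in the controls and 34.7 and 125.6 with inhibitors (log2 fold change 1.95, adjusted p = 0.114, edgeR). CCN1, a secreted matricellular protein, had 39.5 and 59.9 against 70.8 and 231.4 CPM (1.59, adjusted p = 0.128, edgeR). In both genes replicate 2 was higher than replicate 1 in each group, and the groups did not overlap. LATS2, a Hippo kinase, stood at 5.62 and 5.82 against 7.94 and 9.74 CPM (0.61). The list's median was 0.28 without inhibitor replicate 2 and 0.44 without control replicate 1. THBS1 was its 1 called member with inhibitors. With shNBD1 against its own control the list's median was 0.80, with 11 members called higher and 1 lower, where 18.3% of all genes were called (edgeR). The high level of these targets was thus not particular to the inhibitors.

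Immediate early genes respond to growth factors and stress within minutes. Of 25 tested, 14 (56%) lay above both controls and 1 below, against 20.5% and 20.3% of all genes, with a median of 0.50. Their median was 0.24 in the first pair and 0.77 in the second, and 0.12 without inhibitor replicate 2. GADD45B, a stress sensor, had 5.32 and 10.9 CPM against 15.6 and 44.2, and EGR1, a zinc finger transcription factor, 4.86 and 4.85 against 7.56 and 12.8. PPP1R15A, which directs phosphatase 1 to eIF2α, had 19.1 and 35.1 against 39.7 and 93.9 CPM (log2 fold change 1.28, adjusted p = 0.138, edgeR). Of these 25 genes 0 were called, with 12 positive and 0 negative members at an unadjusted p under 0.05 (edgeR). All 13306 genes held 1130 positive and 1053 negative ones at that p.

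Genes of neuronal projections were listed without the called genes STMN3, REEP2, GRIPAP1 and MAPK8IP2 and without CRMP1. Of 28 tested, 12 (42.9%) lay below both controls and 3 above, against 20.3% and 20.5% of all genes. Their median was -0.14. Without control replicate 2 the median was 0.01, on the other side of 0. MAP2, a dendritic microtubule protein, had 24.7 and 23.1 CPM in the controls and 17.9 and 13.9 with inhibitors (log2 fold change -0.57, adjusted p = 0.115, edgeR). DPYSL2, a collapsin response mediator, had 172 and 139 against 129 and 103 CPM (-0.42). SYP, a synaptic vesicle protein, had 8.54 and 10.1 against 6.81 and 5.96 CPM (-0.53). Called members numbered 0, with 0 positive and 7 negative ones at an unadjusted p under 0.05 (edgeR). Among all 13306 genes 1130 were positive and 1053 negative at that p.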
